A study of Caenorhabditis elegans with 8 samples.

Results

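The Hox genes of Caenorhabditis elegans, ceh-13, lin-39, mab-5, egl-5, php-3 and nob-1, were followed in poly(A)-selected RNA from whole N2 hermaphrodites, the wild-type strain, at 2 adult ages. They were chosen by name, as the 6 rows of the deposited table whose gene IDs map to these symbols, of 17076 genes listed in all. The groups are worms labelled as adults of day 1, collected 60 h after plating of synchronized L1 larvae, and of day 5, collected after 180 h, all at 20 °C on OP50 bacteria. The design text of the series gives the control of day 1 the code of the other group, and the culture times lie further apart than the named ages, so the groups here follow the sample titles and the age label. Each age had 4 libraries, 1 in each of 4 labelled batches, and the labels name no separate cultures for them, so each p-value reflects only how far these libraries spread, which may be technical. The libraries held 19345868 to 22305681 reads. The question, from the title of the series, concerns the age of the mother, and the comparison asks which Hox transcripts differ between the ages.

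Hox genes encode homeodomain transcription factors that give cells their identity according to position along the head-to-tail axis, and in most animals they lie in clusters. In the worm the cluster is broken into neighbouring pairs. ceh-13 is the labial-type gene of the anterior, and lin-39 and mab-5 act in the mid-body and the posterior body. egl-5, php-3 and nob-1 are Abdominal-B-type genes of the tail. Hox proteins often bind DNA together with cofactors of the TALE homeodomain class, and their own genes are set by Wnt signals and kept silent elsewhere by Polycomb-type proteins.

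Levels are given as deposited: reads scaled by 1 factor for each library and not corrected for gene length, so that 1 unit is close to 1 read. A log2 difference is that of day 5 less day 1 in log2(level + 1), with the standard error (SE) of a limma fit over all 16739 genes tested. A gene is called when its p-value, adjusted by the Benjamini-Hochberg method over all these genes, is under 0.05.

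The libraries differed in stage markers as well as in labelled age. The yolk gene vit-2, made in the intestine of adult hermaphrodites, was at 273, 1363, 5.50 and 12.6 at day 1 in batches 1 to 4 and between 190742 and 431349 at day 5. The adult cuticle collagen col-19 was at 88.7, 248, 20.9 and 1.94 in the day 1 libraries and between 1752 and 12985 at day 5. The 8 larval moult markers summed to 65341, 55631, 27211 and 43334 at day 1 and to 2300.1 to 6842 at day 5. The low yolk and adult collagen levels and the high moult markers of the day 1 libraries went against their adult label. Yolk and adult collagen were lowest in batches 3 and 4, while the moult markers were highest in batches 1 and 2. The Hox differences and the list counts were also computed with batches 3 and 4 of day 1 left out, and the ratios, neighbours and markers were not. As RNA came from whole worms, fewer cells of a type and less RNA per cell cannot be told apart.

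The Hox transcripts were lower at day 5 in part. mab-5, php-3 and nob-1 were called lower, and ceh-13, lin-39 and egl-5 were not called. None was called higher. edgeR and DESeq2 called the same 3 genes lower, the fit with a replicate block called mab-5 and php-3, and the fit after quantile normalization called php-3 alone. These 3 of 6 compare with 26.8% of all genes tested that were called lower (55.6% in either direction; 27.9% lower with edgeR, 29.1% with DESeq2 and 25% with the block), and with 36.9% of the 7203 genes whose mean level lay between 20 and 500, a range set around the members after their values were seen. All 6 log2 differences were below 0 with the values as deposited, against 51.5% of all genes, and under quantile normalization that of ceh-13 turned to 0.0051. The median of the 6 was -0.74, beside -0.06 over all genes tested. Together the 6 genes had 927, 1007, 930 and 1059 reads at day 1 in batches 1 to 4 and 527, 605, 629 and 616 in those of day 5, in libraries of like depth. These sums did not overlap between the ages. With batches 3 and 4 of day 1 left out, mab-5 and nob-1 remained called lower and php-3 did not, and ceh-13, lin-39 and egl-5 were at -0.24, -0.62 and -0.80, none called (adjusted p = 0.477, 0.077 and 0.176).

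**Figure D1:**
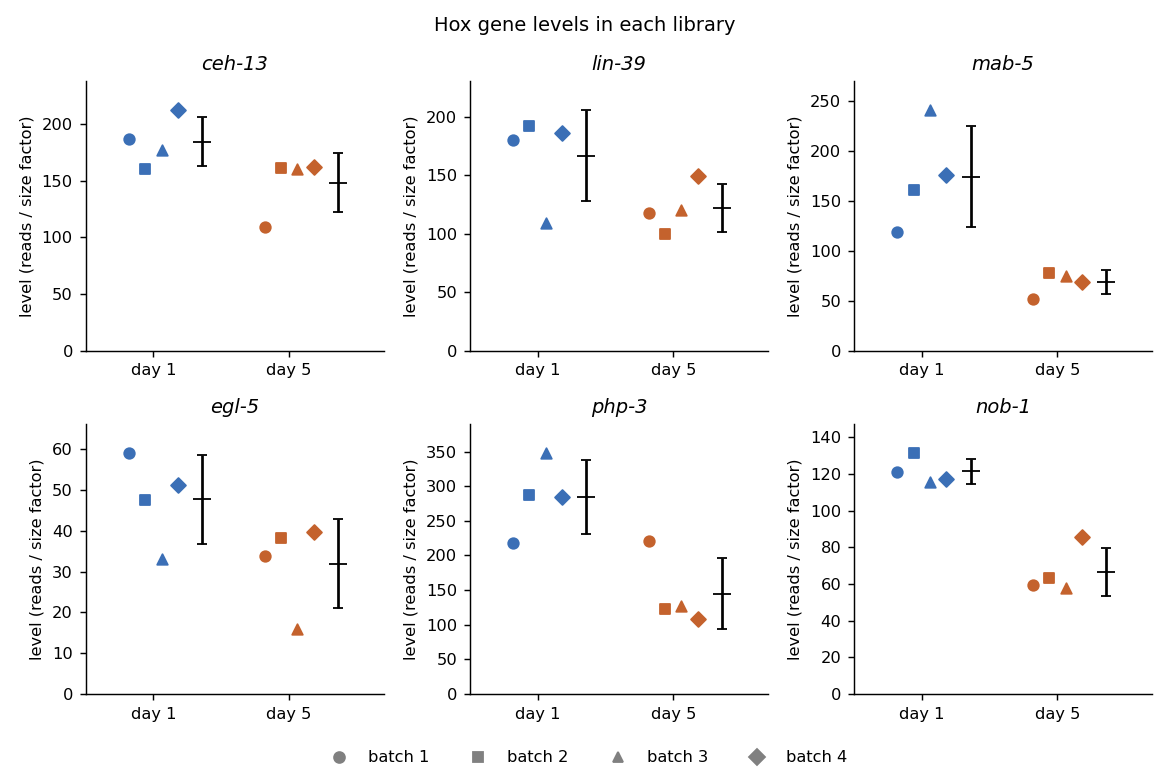
Level of each Hox gene (reads divided by the size factor, linear axis from 0) in the 4 libraries of each age, with a marker for each batch and the mean and SD beside them. In mab-5 and nob-1 every day 5 library lies below every day 1 library, and in php-3 the day 5 library of batch 1, at 221, lies among those of day 1.

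ceh-13 (WBGene00000437; WBcel235 chromosome III, 7555660 to 7558041, plus strand) is the anterior, labial-type member and is needed for normal embryonic morphogenesis. Its level was 187, 160.5, 177 and 212 at day 1 in batches 1 to 4, and 109, 161, 160.3 and 162 in those of day 5. The groups overlapped, and in day 5 the library of batch 1 lay apart from the other three, which were nearly equal. The mean went from 184 ± 21.6 to 148 ± 26.1 (SD, n = 4), or -0.32 on the log2 scale (SE 0.24, limma adjusted p = 0.282). The 95% interval of the difference, from 0.552 to 1.16 as a fold, did not reach a fall by 50%. Within batches 1 to 4 the log2 differences were -0.77, 0.0059, -0.14 and -0.38.

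lin-39 (WBGene00003024; III, 7528641 to 7536632, minus strand) is the mid-body member, required in the vulval precursor cells and in motor neurons of the ventral cord. Its level was 180.2, 193, 109 and 186 in the day 1 libraries and 118, 99.7, 120.5 and 149 in those of day 5. In day 1 the library of batch 3 stood below the other three and inside the day 5 range. The mean was 167 ± 38.99 at day 1 and 122 ± 20.5 at day 5, a log2 difference of -0.43 (SE 0.28, adjusted p = 0.214) with an interval of 0.484 to 1.14 as a fold. The within-batch differences were -0.60, -0.94, 0.14 and -0.32, with batch 3 in the other direction. With library weights lin-39 was called lower (-0.62, adjusted p = 0.0283).

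mab-5 (WBGene00003102; III, 7776835 to 7783454, minus strand) directs the posterior migration of the descendants of the left Q neuroblast and patterns the posterior body. Its level was 119, 160.5, 241 and 175 in the day 1 libraries and 51.8, 78.3, 75.3 and 68.7 in those of day 5. The groups did not overlap, as for 25.2% of all genes tested in the lower direction and 52.8% in either. The mean fell from 174 ± 50.6 to 68.5 ± 11.9, by 60.6%, or -1.30 on the log2 scale (SE 0.30, limma adjusted p = 0.00411). It was lower within each batch, by -1.19, -1.03, -1.67 and -1.34 on the log2 scale. With all libraries and the values as deposited, mab-5 had the largest difference of the 6 genes. The day 1 library with its highest level, batch 3, was also the one with the lowest levels of lin-39 and egl-5. With batches 3 and 4 of day 1 left out the difference of mab-5 was -1.02 (adjusted p = 0.0241), and after quantile normalization it was -0.85 (adjusted p = 0.0502).

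egl-5 (WBGene00001174; III, 7814374 to 7817141, plus strand) is needed in the tail, in rectal cells and in the HSN neurons that drive egg laying. It had the lowest level of the 6, at 59.1, 47.7, 33.02 and 51.4 in the day 1 libraries and 33.8, 38.2, 15.9 and 39.8 in those of day 5. The groups overlapped through the day 1 library of batch 3. These levels rest on 30 to 62 reads a library at day 1 and 18 to 41 at day 5. The mean was 47.8 ± 10.9 at day 1 and 31.9 ± 10.97 at day 5, and the log2 difference of -0.62 (SE 0.40, adjusted p = 0.217) had the widest interval of the 6, from 0.352 to 1.21 as a fold. All 4 within-batch differences were below 0, at -0.79, -0.31, -1.01 and -0.36.

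php-3 (WBGene00004024; III, 12074218 to 12077556, minus strand) is a posterior paralog that acts in the embryonic tail with nob-1. Its level was 217, 287, 348 and 284 in the day 1 libraries and 221, 123, 128 and 108 in those of day 5. The day 5 library of batch 1 was as high as the lowest of day 1, so the groups overlapped. The mean fell from 284 ± 53.3 to 145 ± 51.3, by 49.1%, or -1.01 on the log2 scale (SE 0.28, limma adjusted p = 0.0126). Within batch 1 the difference was 0.02, and within batches 2 to 4 it was -1.22, -1.44 and -1.39. With batch 1 of day 5 left out it was -1.23 (adjusted p = 0.00361). With batches 3 and 4 of day 1 left out, it was -0.84, and the call ended (adjusted p = 0.0569).

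nob-1 (WBGene00003779; III, 12077793 to 12084316, minus strand) is named for the missing back end of its mutants, which fail in posterior embryonic development. Its level was 121, 131, 116 and 117 in the day 1 libraries and 59.6, 63.3, 57.6 and 85.7 in those of day 5. The groups did not overlap, and the day 1 libraries lay closer together than in any other member, relative to their mean. The mean fell from 121 ± 7.05 to 66.6 ± 12.95, by 45.1%, or -0.87 on the log2 scale (SE 0.26, limma adjusted p = 0.0162). It was lower within each batch, by -1.01, -1.04, -0.99 and -0.45. The call did not hold with the replicate block (adjusted p = 0.0522) or after quantile normalization (-0.38, adjusted p = 0.306), and it held with batches 3 and 4 of day 1 left out (-0.93, adjusted p = 0.0314). The calls of mab-5, php-3 and nob-1 each held when any 1 of the 8 libraries was left out.

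**Figure D2:**
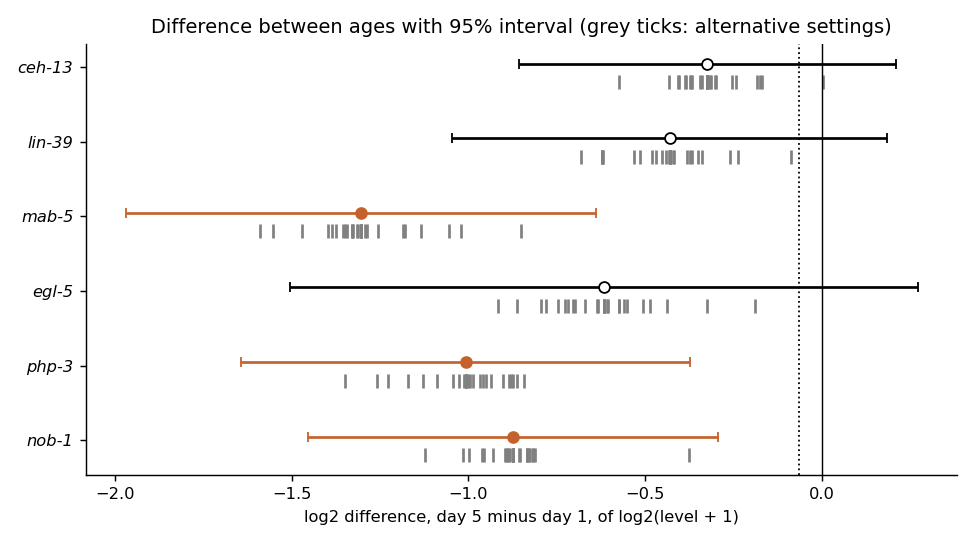
Log2 difference between the ages for each Hox gene (day 5 minus day 1 of log2(level + 1)) with its 95% interval, filled where called, and the values under 27 alternative settings as grey ticks below it. The dotted line is the median of all genes tested, -0.06. The intervals of mab-5, php-3 and nob-1 lie wholly below 0, and a tick of ceh-13, that of quantile normalization, lies just above it.

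Whether the members differed from each other in their change was tested on the log2 ratio of their levels within a library, which does not depend on the library scaling, over all 15 pairs. No pair passed after adjustment over the 15, and the smallest adjusted p was 0.214 (exact two-sided permutation tests, 4 against 4 libraries, smallest possible p 0.0286). At that smallest p a lone pair cannot pass the adjustment, so the design could hardly give a call. In 2 pairs the ages did not overlap. The log2 ratio of ceh-13 to mab-5 was 0.12 ± 0.46 at day 1 and 1.10 ± 0.09 at day 5 (exact p = 0.0286, adjusted p = 0.214). That of ceh-13 to nob-1 was 0.59 ± 0.23 and 1.14 ± 0.30 (exact p = 0.0286, adjusted p = 0.214). The ratio of the mid-body genes lin-39 and mab-5 went from -0.05 ± 0.76 to 0.83 ± 0.39 (exact p = 0.0571, adjusted p = 0.214), and that of the paralogs php-3 and nob-1 from 1.20 ± 0.31 to 1.07 ± 0.64 (exact p = 0.743).

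For levels between genes, reads were divided by exonic length, from 921 bases for ceh-13 to 2150 for nob-1, and by the depth of the library. At day 1 the order was php-3 (11.3 ± 1.59), ceh-13 (10.1 ± 1.19), mab-5 (7.91 ± 1.84), lin-39 (6.17 ± 1.68), nob-1 (2.87 ± 0.316) and egl-5 (1.56 ± 0.423), in RPKM (reads per kilobase of exon, scaled to library depth). The ranges of php-3, ceh-13, mab-5 and lin-39 overlapped from each to the next, while lin-39 lay above nob-1, and nob-1 above egl-5, in all 4 libraries with no overlap. At day 5 the order was ceh-13 (7.80 ± 1.90), php-3 (5.38 ± 1.51), lin-39 (4.2 ± 0.587), mab-5 (3.02 ± 0.779), nob-1 (1.48 ± 0.254) and egl-5 (0.966 ± 0.325). There only mab-5 and nob-1, among neighbours in the order, did not overlap. php-3 was above ceh-13 in 2 of the 4 day 1 libraries, and ceh-13 above php-3 in 3 of the 4 day 5 libraries. lin-39 was above mab-5 in all 4 day 5 libraries, and mab-5 above lin-39 in 3 of the 4 day 1 libraries.

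**Figure D3:**
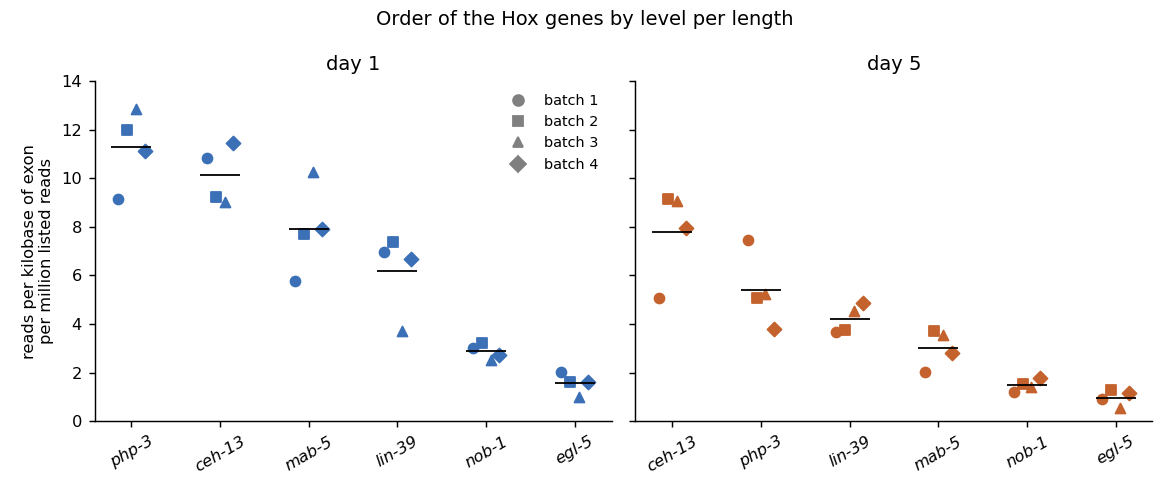
Hox genes in the order of their mean level per length (RPKM, linear axis from 0) at each age, with 1 marker per library and a bar for the mean. php-3 and ceh-13 lead at both ages, and nob-1 and egl-5 are last.

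All 6 genes lie on chromosome III, as 3 neighbouring pairs. lin-39 and ceh-13 are 19027 bases apart with no listed protein-coding gene between them, and mab-5 and egl-5 are 30919 bases apart with 1, cyk-7. php-3 and nob-1 follow each other on the same strand at 236 bases, and reads running from one to the other cannot be assigned with certainty. No exonic bases of a member are shared with another annotated gene. Of the 7 nearest listed protein-coding genes outside the family, 4 were called higher, 2 lower and 1 was not called. bath-15, a BATH-domain gene 801 bases from mab-5, was higher at day 5 (144 to 195 at day 1, 525 to 716 at day 5, log2 difference 1.86, limma adjusted p = 6.51e-05), while mab-5 was lower. cyk-7, a cytokinesis gene between mab-5 and egl-5, was higher as well (709 to 1091 and 1939 to 2794, 1.44, adjusted p = 0.000249).

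On the other side of php-3 the doublecortin-type kinase gene zyg-8, 2147 bases away, was higher (637 to 991 at day 1 and 1350 to 1763 at day 5, log2 difference 0.92, limma adjusted p = 0.00237). lig-4, a DNA ligase gene 3770 bases from lin-39, was higher too (494 to 634 and 690.2 to 1080.3, 0.74, adjusted p = 0.00997). The lower neighbours were lgc-12, a ligand-gated channel gene beside ceh-13 (17.2 to 51.7 and 3.38 to 11.5), and cest-12, a carboxylesterase-type gene beside nob-1 (185 to 583 and 72.7 to 159). egl-45, which encodes a translation initiation factor subunit and lies 7235 bases from egl-5, was not called (adjusted p = 0.15). Within 50 kb of each pair, a window set after the data were seen, both calls occurred around every pair. Around lin-39 and ceh-13, 9 of 20 genes were higher and 6 lower, and around mab-5 and egl-5, 7 of 27 were higher and 5 lower. Around php-3 and nob-1, 4 of 11 were higher, all on the php-3 side, and 4 lower, all on the nob-1 side. Over all genes tested the shares were 28.8% higher and 26.8% lower.

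**Figure D4:**
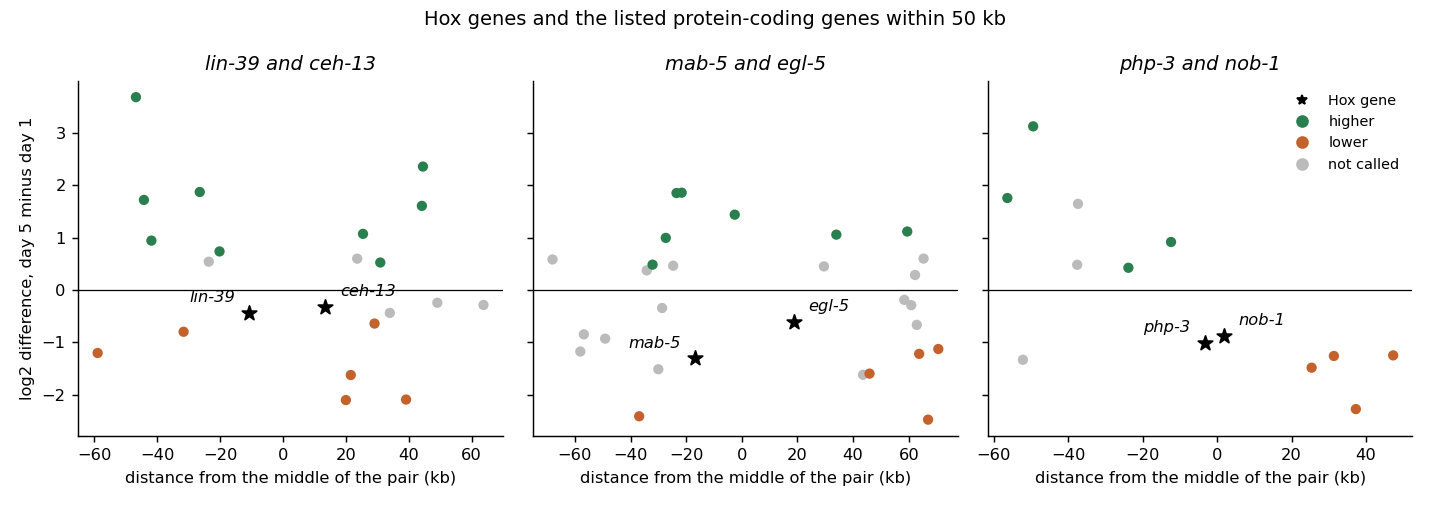
Log2 difference between the ages (vertical) against distance from the middle of each Hox pair (horizontal, kb) for the listed protein-coding genes within 50 kb, coloured by call, with Hox genes as stars. Genes called higher and genes called lower lie on both sides of the first 2 pairs, and around php-3 and nob-1 the called genes to the left are higher and those to the right lower.

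Among the TALE cofactors, the main partners of Hox proteins were not called. ceh-20, the Pbx-type partner, was at 424, 567, 514 and 619 at day 1 in batches 1 to 4 and 438, 500.2, 583 and 450.2 in those of day 5. unc-62, the Meis-type partner, was at 1236, 1366, 761 and 970.2 in the day 1 libraries and 1268, 963, 1058 and 1048 in those of day 5. For both genes the ages overlapped widely, and the 95% intervals of the difference, as a fold, ran from 0.688 to 1.26 for ceh-20 (limma adjusted p = 0.683) and from 0.732 to 1.42 for unc-62 (adjusted p = 0.92). Of the 5 cofactors tested 1 was higher and 1 lower, beside 28.8% and 26.8% of all genes, and with batch 1 of day 5 left out 2 were lower, ceh-60 being the other. The count of lower cofactors was also 2 with library weights or quantile normalization. It was 2 as well with values scaled to a fixed sum per library, or scaled without the 1% of genes with the highest values. ceh-40, a further Pbx-type gene, had 1 to 4 reads in each day 1 library (2.75 ± 1.24) and reached 193 ± 53.9 at day 5 (log2 difference 5.72, SE 0.42, adjusted p = 6.73e-06). psa-3, a Meis-related gene that in worms acts in an asymmetric division of the tail, fell from 108 ± 64.5 to 27.9 ± 8.58 (-1.81, SE 0.45, adjusted p = 0.00621).

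Regulators that act on Hox genes went in both directions. Of 8 upstream transcriptional regulators 2 were higher, 2 lower and 4 not called, close to the shares of all genes, 28.8% and 26.8%. With batch 3 of day 1 left out 5 were lower, with lin-1, lin-22 and sem-4 added, and with batches 3 and 4 of day 1 left out 4, without lin-22. pal-1, the caudal-type gene that activates mab-5 in a seam lineage and is loaded into the oocyte, rose from 212 ± 61.1 to 3071 ± 733 (3.87, SE 0.27, limma adjusted p = 4.97e-06). sur-2, a Mediator subunit gene needed for vulval fate, rose from 304 ± 221 to 1669 ± 769 (2.73, SE 0.59, adjusted p = 0.00316). The lower genes, named because they were few, were lin-31, a forkhead gene of vulval precursor cells (84.0 ± 23.4 to 17.5 ± 8.46), and vab-7, the even-skipped-type gene of the posterior (37.5 ± 5.09 to 10.5 ± 4.6).

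Polycomb-type and trithorax-type regulators were higher in 10 of 13 cases, beside 28.8% of all genes, and lower in 0, with a median log2 difference of 1.75 beside -0.06 over all genes. With batch 3 of day 1, or both batches 3 and 4 of day 1, left out, or with library weights, 1 gene, the demethylase gene jmjd-3.1, was lower. mig-32, a PCGF-type ring finger gene, rose from 276 ± 47.6 to 1743 ± 368 (2.65, SE 0.21, limma adjusted p = 8.97e-06). egl-27, a MTA-type gene that patterns the posterior body, rose from 1165 ± 806 to 4231 ± 586 (2.26, SE 0.57, adjusted p = 0.0074), and its day 1 library of batch 3 was at 234 against 748 to 1881 in the others. The H3K27 methyltransferase complex genes mes-2, mes-3 and mes-6, and the Hox silencer sop-2, were among those higher, at 1.84, 1.64, 1.75 and 1.58. The demethylase gene utx-1 and the trithorax-type gene lin-49 were higher too, at 2.16 and 1.79. The list does not separate genes that silence Hox genes from those that oppose silencing, so its counts do not show a direction of action on Hox genes. The call of spat-3 ended when the day 1 library of batch 3 or 4, or the day 5 library of batch 1, 2 or 3, was left out (adjusted p of up to 0.0871). That of sor-3 ended without the library of batch 1 at day 1, or of batch 1 or 2 at day 5 (up to 0.077). The 8 germline and oocyte markers, of which 7 were called higher and 1 not called, summed to 14373 to 23431 at day 1 and 124363 to 181362 at day 5. The mes genes are known for their work in the germline, and the part of the germline in these values was not tested.

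The Wnt pathway, which sets mab-5 in the Q neuroblasts through the ligand EGL-20 and the beta-catenin BAR-1, split between its members. Of 26 genes tested 12 were higher and 8 lower, beside 28.8% and 26.8% of all genes. Of the 5 ligands 4 were lower. egl-20 was at 173, 202, 112 and 188 at day 1 in batches 1 to 4 and 52.9, 87.6, 49.6 and 51.8 in those of day 5, with no overlap (log2 difference -1.47, SE 0.31, limma adjusted p = 0.00277). cwn-1, cwn-2 and lin-44 were lower by -1.46, -2.01 and -1.80. mom-2, the ligand of the early embryo, rose from 168 ± 73.1 to 3512 ± 579 (4.46, SE 0.30, adjusted p = 3.95e-06). Among the receptors mig-1, lin-18 and lin-17 were lower (-1.28, -1.05 and -0.93), and mom-5, cam-1 and cfz-2 were higher (2.46, 2.01 and 1.20). The call of lin-17 ended when any 1 library other than batch 3 of day 1 or batch 4 of day 5 was left out (adjusted p of up to 0.0816). That of cfz-2 ended when any 1 other than batch 4 of day 1 or batch 1 of day 5 was left out (up to 0.122).

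Inside the cell the Dishevelled gene dsh-2 rose from 323 ± 81.8 to 2889 ± 380 (3.18, SE 0.22, limma adjusted p = 4.14e-06). The other intracellular genes called higher were apr-1, wrm-1, mig-5, sys-1, pop-1 and hmp-2, with log2 differences of 2.02 to 2.68, together with mig-14, which sorts Wnt ligands for secretion, at 2.36. bar-1 was at 270 to 485 at day 1 and 219 to 288 at day 5 and was not called (-0.59, adjusted p = 0.0531), but was called with batch 3 of day 1 left out (adjusted p = 0.0117) and by edgeR (adjusted p = 0.0383). The Axin-type gene axl-1 was lower (-1.37), a call that ended without batch 2 or 4 of day 1 or batch 1 of day 5 (adjusted p of up to 0.0653).

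Genes known as targets of worm Hox proteins were lower in 7 of 13 cases, higher in 2 and not called in 4, beside 26.8% lower and 28.8% higher over all genes. The lower ones were acr-2, del-1, slo-2 and dbl-1, which are expressed in neurons of the ventral cord, the mesoblast factor hlh-8, the vulval factor vab-23 and the cell fusion gene eff-1, with log2 differences of -2.49 to -1.03. The higher ones were egl-1, which starts programmed cell death (1.45 ± 1.25, from 0 to 3 reads a library, at day 1 and 70.9 ± 18.9 at day 5, limma adjusted p = 3.8e-05), and the GATA factor egl-18 of vulva and seam (173 ± 80.5 to 1101 ± 202, 2.82, SE 0.41, adjusted p = 0.000282). elt-6, the GATA gene beside egl-18, was not called (adjusted p = 0.423). The list does not separate targets that Hox proteins activate from those they repress, so these counts do not show whether targets followed the Hox levels.

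**Figure D5:**
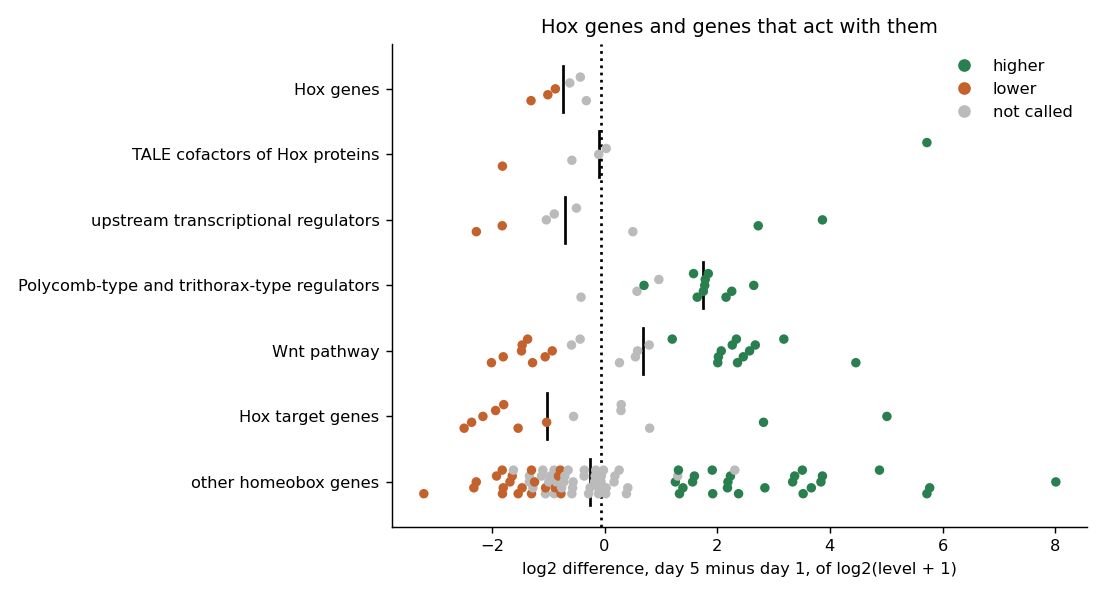
Log2 difference between the ages for each tested gene of the Hox family, its cofactors, regulators, the Wnt pathway, target genes and other homeobox genes, coloured by call, with a bar at each median and a dotted line at the median of all genes, -0.06. The Hox genes span -1.30 to -0.32, and the group of Polycomb-type and trithorax-type genes lies mostly to the right of 0.

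Markers of tissues were set beside these values, with 26.8% of all genes lower and 28.8% higher. Of 13 markers of ventral cord and other neurons 9 were lower, 1, snb-1, was higher and 3 were not called, with a median log2 difference of -1.51. Their sums, 9317 to 13354 at day 1 and 7329 to 9567 at day 5, overlapped, which does not describe the fall of most single markers. Of 10 markers of vulva and sex myoblasts 6 were lower, 1, arg-1, was higher and 3 were not called, with sums of 1156 to 2490.2 at day 1 and 509 to 694 at day 5. Among the lower ones, hlh-8 and vab-23 are also counted as Hox targets above. Of 9 seam and hypodermis markers 5 were lower, 3 higher and 1 not called, with a median log2 difference of -0.97 and sums of 5405 to 9753 and 4252 to 15622. The adult collagen col-19, one of the higher ones, made up a large part of the day 5 sums. It was at 1.94 to 248 at day 1 and 1752 to 12985 at day 5, so the overlap of the sums does not describe the other markers. Of 5 intestine markers 4 were lower and 1 not called, with sums of 46102 to 58089 and 9614 to 13263. All 8 body wall muscle markers were lower, with sums of 99409 to 271375 and 35197 to 69106. Of the 8 early embryo markers in the table, out of 12 in the list, 7 were higher and 1, elt-7, was not called. Their sums were 130 to 163 at day 1 and 847 to 1441 at day 5. Nearly all of the day 1 sums came from elt-7, at 119 to 155, and the other 7 had at most 5 reads each in any day 1 library. Most of the day 5 sums came from vet-2, at 547 to 1089. No marker in the table was at 0 throughout an age. The part of these tissues in the lower Hox levels was not tested.

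Hox genes were set beside the other homeobox genes, a list that repeats the TALE cofactors, pal-1, vab-7 and some tissue markers from above. Of its genes 83 were tested. Of these 24 were higher (28.9%, beside 28.8% of all genes), 19 lower (22.9%, beside 26.8%) and 40 not called, with a median log2 difference of -0.26 and a range of -3.21 to 8.01. The count of lower genes was 11 with batch 4 of day 1 left out and 12 with batch 1 of day 5 left out. Over the 27 alternatives it ranged from 9 to 24. It was lowest with batch 4 of both ages left out and highest with scaling without the 1% of genes with the highest values. Calls over all genes, in either direction, moved as well. They were 9307 in the main fit, 8251 with batch 4 of day 1 left out and 8461 with batch 1 of day 5 left out. With batch 4 of both ages left out they were 7247, and with that scaling 9557. ceh-49 had 0 to 3 reads in each day 1 library and 356 to 715 units at day 5 (log2 difference 8.01, limma adjusted p = 6.39e-06), and ceh-83 went from 9.26 ± 3.06 to 562 ± 203 (5.77, adjusted p = 3.26e-06). Whether the Hox genes differ from this group was not tested.

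Genes with the pattern most like that of each Hox gene were ranked by Pearson's r of log2(level + 1) over the 8 libraries, among 7231 named genes with a mean level of at least 50. These values are descriptions, since the 8 libraries share the age contrast. For mab-5 the closest were the collagen gene col-155 (r = 0.992) and the glucuronosyltransferase gene ugt-6 (0.992), and 383 genes had an r over 0.95. col-155 was at 2781, 6490.0, 14802 and 8123 in the day 1 libraries and 206 to 1055 at day 5, highest, as mab-5 was, in batch 3 of day 1. For nob-1 they were the aquaporin gene aqp-4 (0.989) and the C-type lectin gene clec-169 (0.984), with 73 genes over 0.95. aqp-4 was at 762 to 949 at day 1, and at 235.2, 216, 223 and 357 in the day 5 libraries, with batch 4 highest as in nob-1.

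For php-3 the closest were the kinesin adaptor gene trak-1 (0.985) and the P-glycoprotein gene pgp-3 (0.980), with 15 genes over 0.95. Both shared its high day 5 value in batch 1, at 2075 for trak-1 against 1243 to 1518 in the other day 5 libraries and at 612 for pgp-3 against 380.0 to 406. For lin-39 they were the aldehyde dehydrogenase gene alh-7 (0.978) and the 14-3-3 gene ftt-2 (0.969), with 6 genes over 0.95, and both were lowest at day 1 in batch 3, as lin-39 was. For ceh-13 they were the collagen gene col-141 (0.946) and oac-14 (0.937), and for egl-5 ctsa-1.2 (0.882) and mth-2 (0.874), with 0 genes over 0.95 for either.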

How the data were processed

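Poly(A) RNA of whole worms was sequenced in 8 libraries. The submitters' processing notes name HTSeq, HISAT2 and build WBcel235; the sources used here give no version, strand setting or annotation. The deposited table is named FPKM, but its signal values are reads over a library-wide factor: 100% were whole multiples of 1 step per library within 0.001 reads. The planned log-scale test was kept. limma 3.58.1 (R 4.3.3) was run on log2(value + 1) for genes averaging 1 or more, with age alone in the model, a variance trend and Benjamini-Hochberg adjustment. edgeR 4.0.16 (quasi-likelihood) and DESeq2 1.42.0 on the recovered reads were alternatives, with other pseudocounts, filters, scalings, weights, left-out libraries and a replicate block. Exact permutation tests used scipy 1.17.1 in Python 3.11.15, and matplotlib 3.10.9 drew the plots.

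Gene IDs were matched to symbols in a table of gene names (16887 of 17076) and to annotation release 115 of WBcel235 (17072), which gave 1-based coordinates and exonic lengths. The gene lists came from general knowledge. 1 list symbol, nca-1, was not matched. Members, lists and tests were chosen with earlier results of these data known. Named genes are the 6 members, from each list the 2 called genes with non-overlapping groups and the largest difference, the nearest neighbours and the most similar genes; others were named after their values were seen.

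Batch labels pair the libraries, 1 of each age. Deviations of same-batch libraries from their group means had correlations across genes of -0.22, 0.24, -0.09 and -0.02. All pairs of libraries differed by more than sampling noise. The fits were checked on counts simulated with a dispersion (spread beyond sampling noise) of 0.05. There limma called 16% of genes changed 1.5-fold, 66% of those changed 2-fold and 98% of those changed 4-fold. The simulation had few changed genes, with 143 limma calls among 16715 genes, beside 9307 of 16739 in the data. Its adjustment for many genes was therefore stricter, and these shares do not carry over to the data. A gene not called may still have changed by a small fold. Whether that dispersion holds for these libraries was not tested.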

Additional observations from a re-analysis of the deposited data

Results flagged for a closer look

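A library was singled out where its gap to the nearest of the other 3 of its age exceeded Dixon's critical share of the range of that age (95%). Of 80 groups of 4 libraries examined, 10 had such a library. Chance gives about 1 in 20 for groups chosen without regard to their values, but 7 of the 10 belong to genes chosen because their pattern resembled that of a Hox gene, so the numbers cannot be compared. Among the Hox genes there were 2 of 12 groups: ceh-13 at 109 in the day 5 library of batch 1, against 160.3 to 162 in the others, and lin-39 at 109 in the day 1 library of batch 3, against 180.2 to 193.

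The day 1 library of batch 3 also stood apart for alh-7 (1182), ftt-2 (6448) and ctsa-1.2 (6624), genes ranked as similar to lin-39 or egl-5. The day 5 library of batch 1 stood apart for col-141 (3.38) and pgp-3 (612), that of batch 4 for aqp-4 (357) and clec-169 (54.8), and that of batch 3 for egl-1 (99.2).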

How the results depend on the processing

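Under 27 alternatives the log2 difference of mab-5 ranged from -1.59 to -0.85, that of php-3 from -1.35 to -0.84 and that of nob-1 from -1.12 to -0.38. The call of mab-5 ended with quantile normalization (-0.85, adjusted p = 0.0502). That of nob-1 ended with quantile normalization (-0.38), the replicate block (-0.87, adjusted p = 0.0522), batch 1, 2 or 3 left out (-0.83, -0.82 and -0.83) and the day 1 libraries of batches 1 and 2 left out (-0.82). That of php-3 ended with batch 2, 3 or 4 left out (-0.94, -0.86 and -0.88) and with batches 3 and 4 of day 1 left out (-0.84). These settings have fewer libraries, except for quantile normalization and the block. ceh-13 reversed to 0.0051 with quantile normalization, and lin-39 was called with library weights (-0.62). The count of members called, 3, was 1 with quantile normalization or with batch 2 or 3 left out, and 4 with library weights. The count of all genes called, 9307, moved in the same directions. It was 8441 with quantile normalization, 7939 with batch 2 left out, 8733 with batch 3 left out and 10383 with library weights. edgeR and DESeq2 gave the calls of the limma fit for all 6 members. The replicate block changed no other call among them.

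Scaling without the 1% of genes with the highest values moved the median of all genes from -0.06 to -0.298, and relative to it mab-5, php-3 and nob-1 were at -1.26, -0.96 and -0.82, beside -1.24, -0.94 and -0.81 as deposited. The share of calls that were higher went from 51.8% to 44.2% with that scaling. As it applies 1 factor to a whole library, it moves all genes nearly alike, so the values relative to the median could hardly change. Quantile normalization is not bound in this way, and with it mab-5, php-3 and nob-1 were at -0.72, -0.74 and -0.25 relative to the median, and ceh-13 at 0.14.

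With 1 library left out, the smallest p for a ratio of members is 0.0571, so no pair could pass. Ratios near 0 turned sign: ceh-13 over lin-39 ranged from -0.0368 to 0.28, ceh-13 over egl-5 from -0.0432 to 0.49, lin-39 over egl-5 from -0.11 to 0.39, mab-5 over php-3 from -0.43 to 0.0497 and php-3 over nob-1 from -0.40 to 0.11. egl-5 rests on the fewest reads of the 6, 18 to 62 a library.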

Other observations

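Among the other homeobox genes, the ONECUT group and the sine oculis group were divided. The members were chosen after their values were seen, and no list was tested. Of the ONECUT genes, which carry a cut domain beside the homeodomain, ceh-21 went from 45.7 ± 6.48 at day 1 to 687 ± 221 at day 5, ceh-38 from 728 ± 326 to 3488 ± 929, and ceh-39, which helps to count X chromosomes in the early embryo, from 26.8 ± 12.5 to 767 ± 308 (n = 4). ceh-41 went from 140.4 ± 42.3 to 343 ± 76.3. These 4 genes and ceh-49 were called higher, while ceh-48, known from neurons, was lower, from 98.5 ± 10.4 to 47.3 ± 7.28 (limma adjusted p = 0.00844). Of the sine oculis-type genes, ceh-32 was higher, from 198 ± 56.0 to 496 ± 121, and ceh-33 and ceh-34, the second a regulator of pharyngeal neurons, were lower, from 21.3 ± 5.74 to 3.87 ± 2.45 and from 88.9 ± 16.96 to 27.5 ± 2.53. The NK-2-type factor of pharyngeal muscle, ceh-22, was also lower, from 66.3 ± 22.8 to 9.34 ± 6.44, with 0 reads in the day 5 library of batch 4 (adjusted p = 0.00806).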
